A study of Homo sapiens with 6 samples.

Results

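Desmosomes are the spot-shaped junctions that join epithelial cells and anchor their intermediate filaments, and 10 genes that encode their main proteins were followed in lenvatinib-resistant thyroid carcinoma cells. The members were taken by name from the deposited table, where all 10 had a row among the 22681 genes counted. They are the cadherins DSG2, DSG3, DSC2 and DSC3, the plakin DSP, and the armadillo proteins JUP, PKP1, PKP2, PKP3 and PKP4. Although the set can be labelled as plakins and cadherins, its members hold 5 armadillo genes and only 1 plakin.

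RNA was sequenced from TPC-1-Len cultures. This line was derived from human papillary thyroid carcinoma cells (TPC-1) and is resistant to lenvatinib, an inhibitor of several receptor tyrosine kinases. In the sh-KRT15 group (n = 3) the cells had been transfected with a short hairpin RNA against KRT15, a type I keratin, and in the sh-NC group (n = 3) with a non-targeting hairpin. Both groups were resistant and stayed in 10 µM lenvatinib, so neither a sensitive nor an untreated culture stands beside them. The hairpin's sequence, the time of harvest and whether the resistant line was a clone are not stated in the labels. The design text calls the replicates biological and says no more, so the spread behind each p-value is that of these 6 cultures and may be technical in part.

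In a desmosome, desmogleins (DSG) and desmocollins (DSC) of neighbouring cells bind each other outside the membrane. Inside, their tails bind plakoglobin (JUP) and the plakophilins (PKP), and these bind desmoplakin (DSP), whose far end holds the keratin filaments. DSG2 and DSC2 are the cadherins of simple epithelia, whereas DSG3 and DSC3 belong mainly to the deeper layers of stratified epithelia. Mutations of DSP, JUP, PKP2, DSG2 and DSC2 are known from arrhythmogenic cardiomyopathy, and the pathway of that disease was attached to these 5 of the 10 members in the deposited table.

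The stretches of DNA before the transcription starts of 4 members are shown because these genes represent the behaviours described further on: DSC2 fell, PKP4 rose, DSG2 was the most abundant cadherin, and DSP was nearly silent in both groups. Each runs 5′ to 3′ on the gene's own strand over the 250 bases before the gene's outermost RefSeq start in GRCh38.p14, and capitals mark matches to the motifs searched. DSC2 lies on the minus strand (chr18:31102422-31102671), and DSG2 (chr18:31497927-31498176), PKP4 (chr2:158456702-158456951) and DSP (chr6:7541421-7541670) lie on the plus strand.
DSC2: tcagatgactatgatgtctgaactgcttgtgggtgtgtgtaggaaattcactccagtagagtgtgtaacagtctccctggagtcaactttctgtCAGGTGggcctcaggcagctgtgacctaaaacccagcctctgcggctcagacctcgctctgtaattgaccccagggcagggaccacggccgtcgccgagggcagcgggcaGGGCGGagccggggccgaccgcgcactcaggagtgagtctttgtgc
DSG2: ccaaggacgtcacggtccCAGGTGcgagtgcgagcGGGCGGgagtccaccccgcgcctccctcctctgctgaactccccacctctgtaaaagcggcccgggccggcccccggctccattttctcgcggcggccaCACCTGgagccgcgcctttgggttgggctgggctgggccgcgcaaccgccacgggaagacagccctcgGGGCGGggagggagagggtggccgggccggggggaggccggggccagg
PKP4: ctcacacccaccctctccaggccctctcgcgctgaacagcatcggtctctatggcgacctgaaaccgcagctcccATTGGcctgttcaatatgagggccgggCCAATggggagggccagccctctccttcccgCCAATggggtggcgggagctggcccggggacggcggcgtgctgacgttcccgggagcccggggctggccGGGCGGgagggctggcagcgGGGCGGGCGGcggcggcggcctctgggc
DSP: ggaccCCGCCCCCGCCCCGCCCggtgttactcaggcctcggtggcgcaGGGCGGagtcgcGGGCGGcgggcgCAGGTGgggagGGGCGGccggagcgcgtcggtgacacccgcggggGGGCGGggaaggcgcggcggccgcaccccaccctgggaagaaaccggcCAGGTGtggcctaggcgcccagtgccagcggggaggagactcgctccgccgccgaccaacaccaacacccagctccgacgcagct

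The RefSeq promoter table matched 8 of the 10 members and did not cover PKP2 and PKP3. The motifs were the GC box GGGCGG, the CCAAT box, the E-box CACCTG that SNAI and ZEB repressors can bind, the AP-1 motif TGANTCA and the grainyhead motif AACCNGTT, each read on both strands. Neighbouring GC boxes can share letters, as they do in DSP and PKP4. Of the 8 members, 6 held a GC box within these 250 bases, against 42.6% of the 35116 promoters of the table. The E-box stood in 3 members, with 1 match in DSC2, 2 in DSG2 and 2 in DSP, and in 17.5% of all promoters. The CCAAT box stood in 3 members, PKP4 with 3 matches and JUP and DSC3 with 1 each, and in 32.0% of all promoters. None of the 8 held AP-1 or grainyhead letters in this window, which 6.57% and 1.49% of all promoters did. The member counts are for the outermost start of each gene, whereas the shares of all promoters count every start in the table. The table also holds a second start for DSC2, JUP and PKP4, where JUP had 2 E-boxes, DSC2 had none and neither JUP nor PKP4 had a CCAAT box. At that start JUP had no GC box, while DSC2 had 2 and PKP4 had 1. These are letters in a window and were not measured as binding sites.

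Libraries held 39868231 to 41343780 counted reads in sh-KRT15 and 36286059 to 36808695 in sh-NC. KRT15 itself had 1024, 1044 and 1005 reads in the sh-KRT15 libraries and 1040, 1137 and 1284 in the sh-NC libraries, and its level was 0.77-fold that of sh-NC (log2 fold change −0.38 ± 0.10 SE, adjusted p = 0.00465). Levels are given as CPM, the counts of a gene per 1000000 counts of the scaled library. As the labelled cell type is epithelial, its defining markers were read as well. KRT18, KRT8 and KRT7 were expressed and the thyroid factor PAX8 had 50972 reads in sh-KRT15 and 40268 in sh-NC. The epithelial markers EPCAM (6 and 2 reads), CDH1 (1 and 4 reads) and KRT19 (0 and 4 reads) and the thyroid factor NKX2-1 (0 reads and 1 read) were near absent from sh-KRT15 and sh-NC. Of other thyroid genes, FOXE1 had 1902 reads in sh-KRT15 and 1570 in sh-NC, TG 100 and 170, and TSHR 0 and 1. The summed level of 5 fibroblast markers was 7.64 to 8.45 CPM in sh-KRT15 and 17.4 to 23.1 CPM in sh-NC. That of 4 leukocyte markers was 0.908 to 1.19 CPM in sh-KRT15 and 3.42 to 4.60 CPM in sh-NC. For 3 stratified keratinocyte markers it was at most 0.0247 CPM in sh-KRT15 and 0.0281 CPM in sh-NC. For 2 melanocyte markers it was 6.70 to 8.45 CPM in sh-KRT15 and 6.29 to 8.01 CPM in sh-NC. For 3 endothelial markers it was 0.955 to 1.78 CPM in sh-KRT15 and 0.702 to 1.35 CPM in sh-NC. The fibroblast markers did not move together: COL1A1 (−1.52, adjusted p = 1.34e-06) and LUM (−2.77, adjusted p = 6.76e-08) fell on the log2 scale, and PDGFRB (1.05, adjusted p = 0.00337) rose. Most of the leukocyte sum was CSF1R, the only tested gene of that list (−2.03, adjusted p = 1.16e-05). It had 107 reads in sh-KRT15 and 380 in sh-NC, against 0 and 43 for PTPRC, 1 and 4 for CD3E and 20 and 19 for CD14. The part of these cell types' markers in the results on the junction genes was not tested. In bulk RNA, fewer cells that express a gene and less RNA per cell cannot be told apart.

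Of the 10 members, 6 were expressed well enough to be tested and 4 were nearly silent. Among the 6, PKP2, PKP3 and PKP4 were called higher in sh-KRT15, DSC2 and DSG2 were called lower, and JUP was not called. A gene was called at a Benjamini-Hochberg adjusted p under 0.05 in the quasi-likelihood test of edgeR across 14356 genes. In the same test 45.0% of all genes were called, 22.1% higher and 23.0% lower, so a call alone sets a member apart little. The groups did not overlap in 4 of the 6 (PKP2, PKP3, PKP4 and DSC2), against 54.0% of all tested genes. The median log2 fold change was 0.27 over the 6 members and 0.00 (−0.00130) over all genes. Each of the 6 had at least 136 reads in every library, so none passed the filter on low counts through 1 group only.

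**Figure D1:**
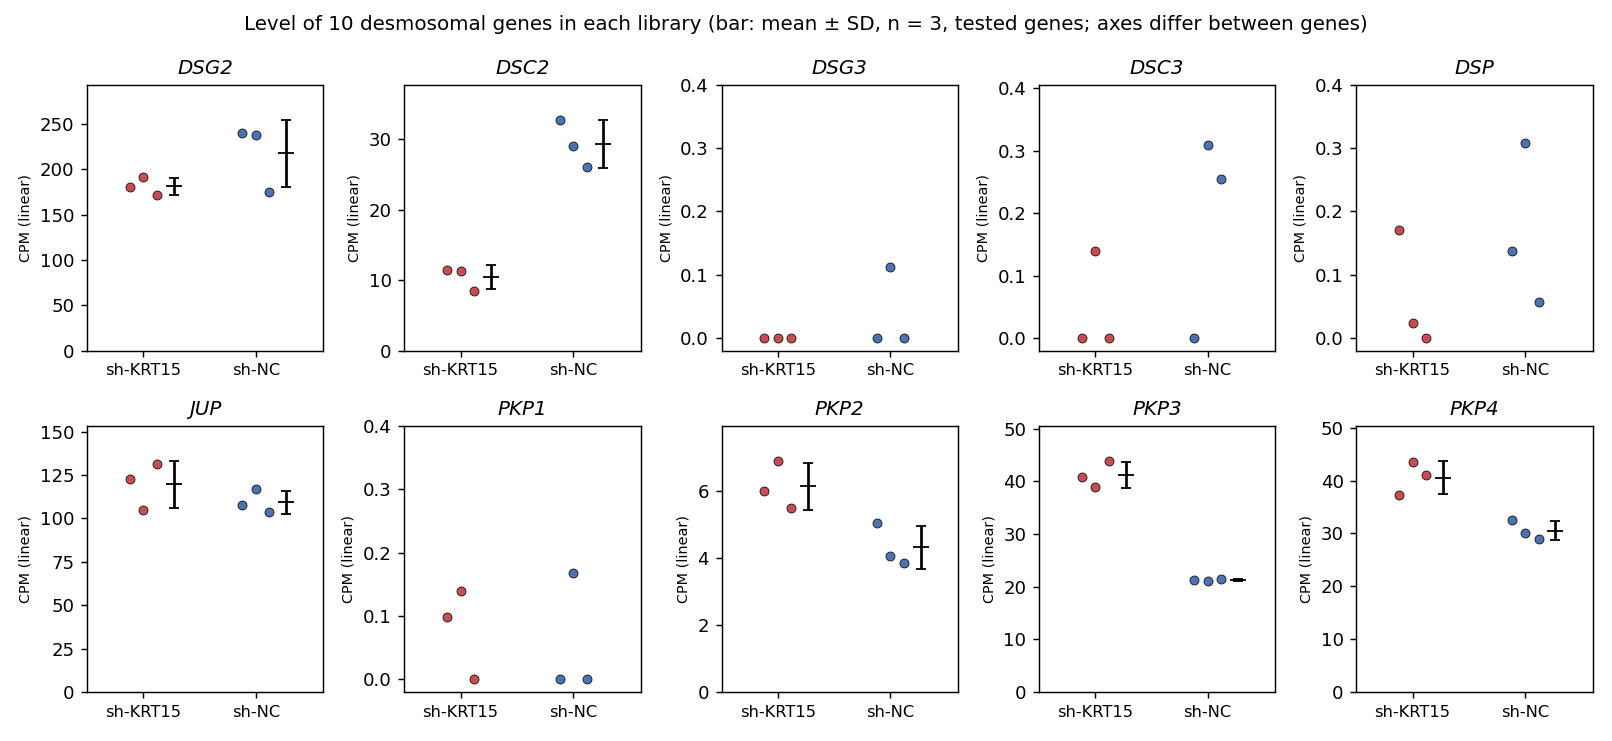
Level of each of the 10 genes in CPM (linear axis, a separate range for each gene) in the 3 sh-KRT15 libraries (red) and the 3 sh-NC libraries (blue), with the mean and SD of each group for tested genes. PKP3 and DSC2 separate widely between the groups, DSG2 and JUP overlap, and DSG3, DSC3, DSP and PKP1 stay below 0.4 CPM.

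DSC2, the desmocollin of simple epithelia, showed the largest log2 fold change among the 6 tested members. It had 470, 488 and 341 reads in the sh-KRT15 libraries, against 1187, 1036 and 921 in the sh-NC libraries. On the scale of CPM these were 11.5, 11.4 and 8.43 in sh-KRT15 and 32.8, 29.1 and 26.0 in sh-NC. Every sh-KRT15 library therefore lay below every sh-NC library, with a wide gap between them. The mean fell to 10.4 ± 1.73 CPM (SD, n = 3) in sh-KRT15, against 29.3 ± 3.40 CPM (SD, n = 3) in sh-NC, 0.36-fold. The log2 fold change was −1.49 ± 0.13 (SE, adjusted p = 7.69e-08), which ranks 430 by p among the 14356 genes. With 3 libraries in each group a two-sided exact permutation test of the CPM values cannot go below its result here, p = 0.1.

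DSG2, the desmoglein of simple epithelia, was by far the more abundant cadherin and differed less. It had 7393, 8214 and 6952 reads in sh-KRT15 and 8715, 8474 and 6199 in sh-NC, which is 181, 191 and 172 CPM in sh-KRT15 and 241, 238 and 175 CPM in sh-NC. The groups overlapped, because sh-NC replicate 3 lay within the range of the sh-KRT15 libraries. The log2 fold change of −0.26 ± 0.10 (SE) had an adjusted p of 0.0430. The call was lost in 7 of 15 other settings, among them total-count scaling (adjusted p = 0.141), limma-voom (0.0532) and the removal of sh-KRT15 replicate 1 (0.119), 2 (0.0511) or 3 (0.147) or of sh-NC replicate 1 (0.181) or 2 (0.194). Without sh-NC replicate 3 the value was −0.40 (adjusted p = 2.83e-05).

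The composition of the cadherin RNA differed accordingly. DSC2 made up 5.98, 5.61 and 4.68% of the summed reads of DSC2 and DSG2 in the sh-KRT15 libraries and 12, 10.9 and 12.9% in the sh-NC libraries. The mean share was 5.42 ± 0.671% in sh-KRT15 and 11.9 ± 1.02% in sh-NC (SD, n = 3 each), with no overlap (two-sided exact permutation p = 0.1). Such a share does not depend on how libraries are scaled. It was computed after the values of both genes had been seen.

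The cadherins of stratified epithelia were close to absent. DSC3 had 0, 6 and 0 reads in the sh-KRT15 libraries and 0, 11 and 9 in the sh-NC libraries. DSG3, the antigen of pemphigus vulgaris, had no read in sh-KRT15 and 4 reads, all in replicate 2, in sh-NC. In sh-KRT15, 3 reads over the group would equal 0.0246 per 1000000 counts of the unscaled libraries. Over all 3 desmocollin genes, DSC1 included, DSC2 held 98.8 to 100.0% of the reads in the sh-KRT15 libraries and 98.6 to 100.0% in the sh-NC libraries. Over all 4 desmoglein genes, DSG1 and DSG4 included, DSG2 held 100.0% in every sh-KRT15 library and 99.86 to 99.95% in the sh-NC libraries. Neither DSC3 nor DSG3 was tested, as both were under the filter, and without a filter they had adjusted p-values of 0.336 and 0.230.

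All 4 cadherins lie in 1 cluster on chromosome 18 (bases 30989365 to 31549008 in GRCh38), where 2 of the 7 desmosomal cadherin genes were expressed. In the order of the chromosome, reads summed over the sh-KRT15 and the sh-NC libraries were 6 and 20 for DSC3, 1299 and 3144 for DSC2, 0 and 5 for DSC1, 0 and 10 for DSG1, 0 and 9 for DSG4, 0 and 4 for DSG3, and 22559 and 23388 for DSG2. The 5 silent genes lie at one end of the cluster (DSC3) and between the expressed pair (DSC1, DSG1, DSG4 and DSG3). The nearest tested neighbours were CDH2, 2812 kb before the cluster, which fell by 0.81 ± 0.10 on the log2 scale (adjusted p = 5.39e-06), and B4GALT6, 73.2 kb after it, at −0.31 ± 0.15 (adjusted p = 0.0956). B4GALT6 was called lower under 4 other settings (adjusted p = 0.00868 to 0.0197) and turned to 0.03 with the trend of GC content and length removed.

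**Figure D2:**
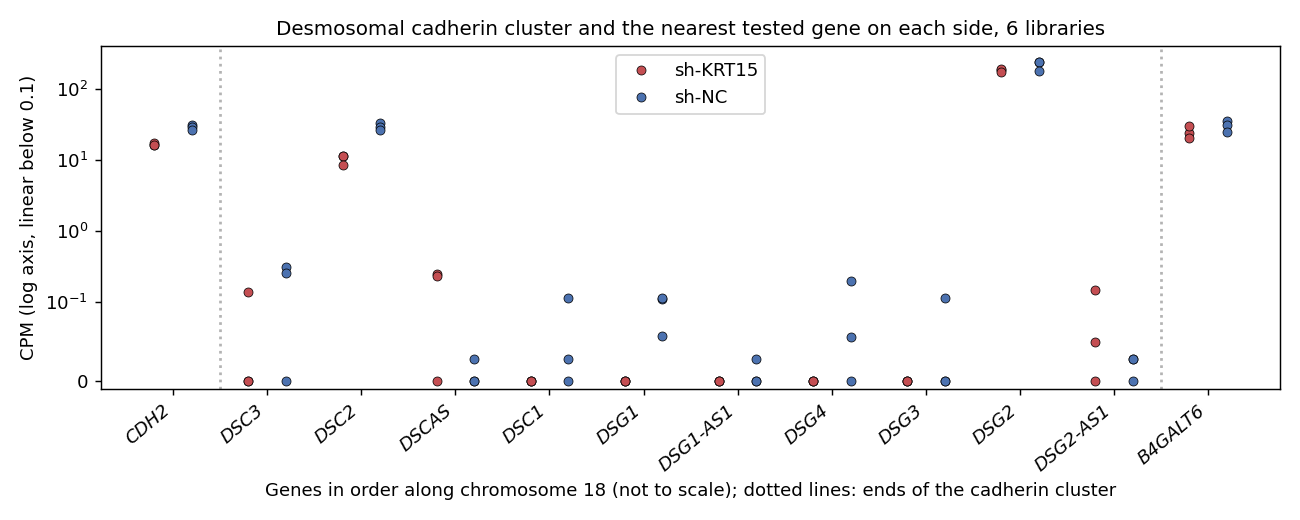
CPM (log axis, linear below 0.1) of the genes of the desmosomal cadherin cluster in their order along chromosome 18, not to scale, with the nearest tested gene on each side, in the 3 sh-KRT15 (red) and 3 sh-NC libraries (blue). DSC2 and DSG2 stand above 8 CPM in every library, and the other genes inside the cluster stay below 0.4 CPM.

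The antisense genes DSCAS and DSG2-AS1 overlap DSC2 by 834 and DSG2 by 6863 bases. Since no strand setting is given, their reads cannot be told apart from those of the cadherins. DSCAS had 20 reads in sh-KRT15 and 1 in sh-NC, and DSG2-AS1 had 8 and 2, few beside the counts of DSC2 and DSG2.

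Desmoplakin, the plakin that ties the junction to keratin, was at the limit of detection. DSP had 7, 1 and 0 reads in the sh-KRT15 libraries and 5, 11 and 2 in the sh-NC libraries, at most 0.309 CPM. The groups overlapped, and the gene was too low to be tested. The summed reads, 8 in sh-KRT15 and 18 in sh-NC, gave a depth-corrected ratio of 0.40 with an exact 95% interval of 0.150 to 0.966 that covers counting error only. Without a filter DSP had an adjusted p of 0.508. Other plakins were abundant: PLEC, which links keratin and vimentin filaments to junctions, averaged 1168 ± 175 CPM in sh-KRT15 and 796 ± 112 CPM in sh-NC (SD, n = 3 each), and DST averaged 61.1 ± 10.6 CPM in sh-KRT15 and 92.0 ± 15.9 CPM in sh-NC. Periplakin (PPL) had 4 reads in sh-KRT15 and 11 in sh-NC.

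Plakoglobin (JUP), which binds the tails of both kinds of desmosomal cadherin and can also take the place of beta-catenin at adherens junctions, was abundant in both groups. It had 5030, 4496 and 5308 reads in sh-KRT15 and 3894, 4161 and 3685 in sh-NC, which is 123, 105 and 131 CPM in sh-KRT15 and 108, 117 and 104 CPM in sh-NC. The groups overlapped through sh-KRT15 replicate 2. The log2 fold change was 0.13 ± 0.09 (SE, adjusted p = 0.240), with a 95% interval of −0.04 to 0.30, so a rise of up to that size lies within the interval. Without sh-KRT15 replicate 2 the gene was called higher (0.22, adjusted p = 0.0308), and with the trend of GC content and length removed the value was 0.01 (adjusted p = 0.932). JUP lies on chromosome 17 (41754609 to 41786711), 236 kb from KRT15.

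Of the plakophilins, which cluster the cadherins at the membrane, PKP3, found in nearly all epithelia with desmosomes, showed the widest separation. It had 1674, 1671 and 1775 reads in sh-KRT15, against 769, 750 and 757 in sh-NC. The level rose to 41.2 ± 2.51 CPM in sh-KRT15, against 21.2 ± 0.155 CPM in sh-NC (SD, n = 3 each), 1.94-fold. The sh-NC libraries lay within 0.31 CPM of each other, and the lowest sh-KRT15 library was far above them. The log2 fold change was 0.96 ± 0.09 (SE, adjusted p = 1.90e-07), and it was called in all 15 other settings.

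PKP4, also called p0071, is a relative that is found at adherens junctions as well as desmosomes. It had 1524, 1869 and 1657 reads in sh-KRT15 and 1179, 1069 and 1029 in sh-NC. In CPM these were 37.2, 43.5 and 41.0 in sh-KRT15 and 32.6, 30.0 and 29 in sh-NC, again with no overlap. The log2 fold change was 0.41 ± 0.09 (SE, adjusted p = 0.00167) and was called in all 15 other settings.

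PKP2, the plakophilin of simple epithelia and heart muscle, was the lowest of the 3 that were expressed. It had 246, 296 and 222 reads in sh-KRT15 and 182, 145 and 136 in sh-NC, a mean of 6.13 ± 0.710 CPM in sh-KRT15 and 4.31 ± 0.630 CPM in sh-NC (SD, n = 3 each). The groups did not overlap, but the highest sh-NC library (5.03 CPM) came close to the lowest sh-KRT15 library (5.49 CPM). The log2 fold change was 0.51 ± 0.18 (SE, adjusted p = 0.0262). The call was lost without sh-KRT15 replicate 1 (adjusted p = 0.0575) or 2 (0.10) and without sh-NC replicate 2 (0.0852) or 3 (0.0707). RefSeq lists a pseudogene of PKP2 and one of PKP4, and how reads shared with them were counted is not stated in the labels.

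PKP1, the plakophilin of stratified epithelia, was near absent, with 4, 6 and 0 reads in sh-KRT15 and 0, 6 and 0 in sh-NC. The ratio of its summed reads, 10 in sh-KRT15 to 6 in sh-NC, was 1.5 after correction for depth, with an exact 95% counting interval of 0.494 to 5.02.

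**Figure D3:**
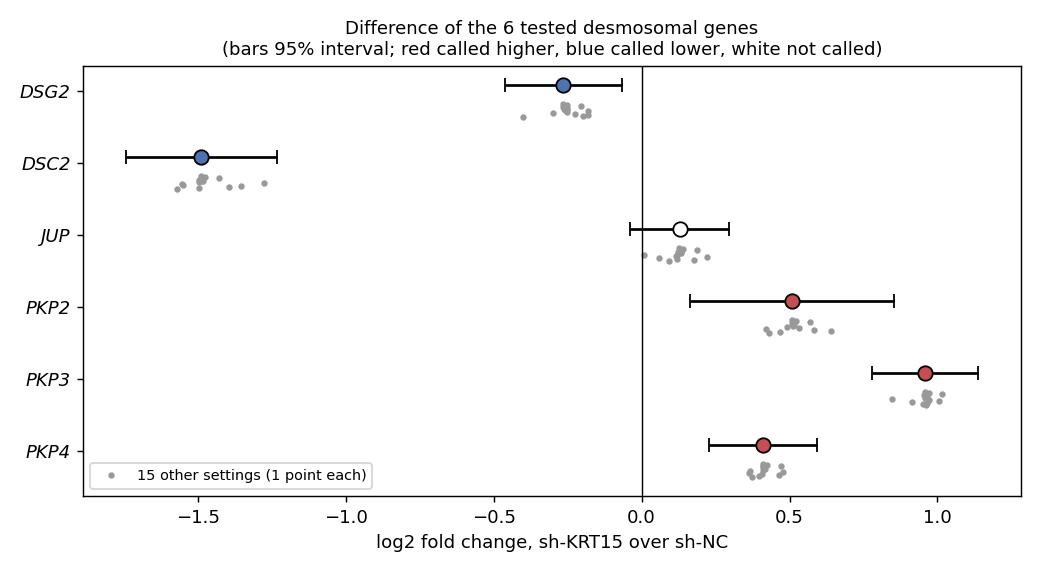
Log2 fold change of sh-KRT15 over sh-NC for the 6 tested members, with the 95% interval as a bar and the value under each of 15 other settings as a grey point. Red members were called higher, blue members called lower and the white member was not called. The points of DSC2 and PKP3 stay far from 0, those of DSG2 reach −0.18 and those of JUP reach 0.01.

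Within the plakophilins, PKP3 made up more of the reads in sh-KRT15 and PKP4 less. PKP3 made up 48.5, 43.5 and 48.6% of plakophilin reads in the sh-KRT15 libraries and 36.1, 38.1 and 39.4% in the sh-NC libraries. PKP4 made up 46.1 ± 2.31% in sh-KRT15 and 54.4 ± 0.913% in sh-NC (SD, n = 3 each). Neither share overlapped between the groups, and both had a two-sided exact permutation p of 0.1, the smallest possible here. PKP2 made up 6.97 ± 0.827% in sh-KRT15 and 7.66 ± 0.779% in sh-NC, and these overlapped (exact permutation p = 0.5). Shares were taken over 1922 to 3842 plakophilin reads per library.

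**Figure D4:**
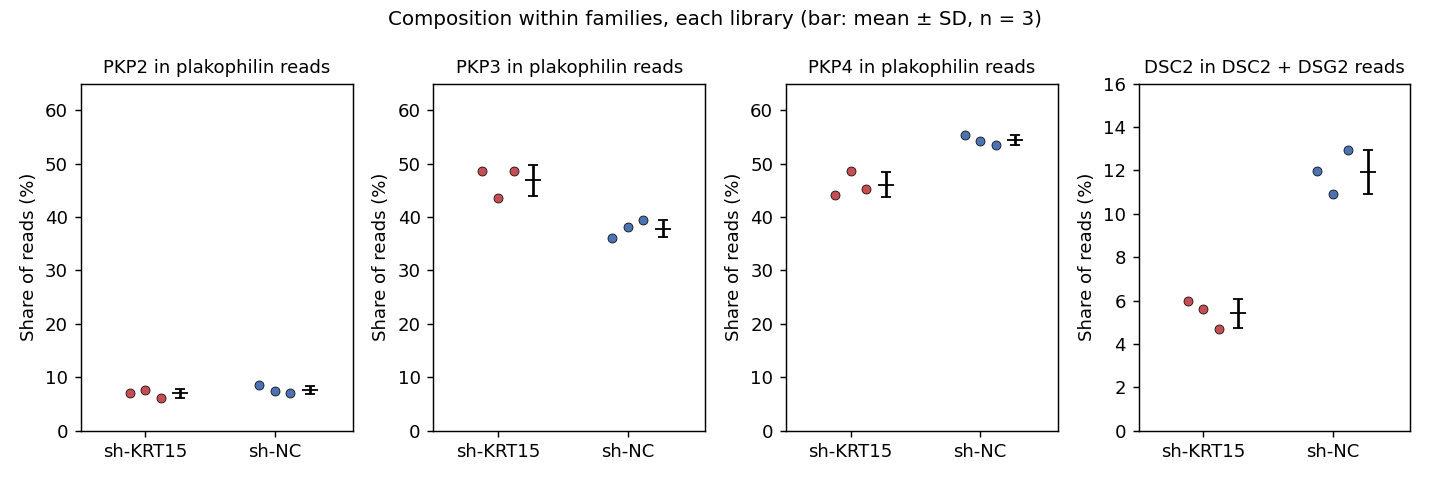
Share of PKP2, PKP3 and PKP4 in all plakophilin reads, and of DSC2 in the reads of DSC2 and DSG2 (percent, axes from 0), for the 3 sh-KRT15 (red) and 3 sh-NC libraries (blue), with mean and SD. PKP3 lies between 43.5 and 48.6% in sh-KRT15 and between 36.1 and 39.4% in sh-NC, and DSC2 between 4.68 and 5.98% in sh-KRT15 and between 10.9 and 12.9% in sh-NC.

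Ratios between partners within a library, chosen after the values were seen, followed the single genes. The log2 ratio of DSC2 to JUP reads was −3.42, −3.20 and −3.96 in the sh-KRT15 libraries and −1.71, −2.01 and −2.0 in the sh-NC libraries. That of PKP3 to JUP was −1.59, −1.43 and −1.58 in sh-KRT15 and −2.34, −2.47 and −2.28 in sh-NC. Neither overlapped (exact permutation p = 0.1 each), whereas the ratio of DSG2 to JUP did, at 0.56, 0.87 and 0.39 in sh-KRT15 and 1.16, 1.03 and 0.75 in sh-NC (p = 0.2, exact).

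To set genes beside each other, levels were divided by length, as CPM per kilobase of exon in GENCODE release 29. On that scale the order in sh-KRT15 was DSG2 (29.3 ± 1.57), JUP (24.2 ± 2.75), PKP3 (10.9 ± 0.662), PKP4 (4.26 ± 0.333), PKP2 (0.870 ± 0.101) and DSC2 (0.834 ± 0.138). In sh-NC it was DSG2 (35.2 ± 6.0), JUP (22.1 ± 1.34), PKP3 (5.60 ± 0.0410), PKP4 (3.21 ± 0.191), DSC2 (2.34 ± 0.272) and PKP2 (0.612 ± 0.0894), each with SD and n = 3. The libraries of neighbours in these orders did not overlap, except PKP2 and DSC2 in sh-KRT15. Per kilobase of exon, DSC2 thus stood at the level of PKP2 in sh-KRT15 and above it in sh-NC. The exons of DSC2 add up to 12495 bases, of which 2736 are coding. Per kilobase of coding length, an alternative added later, DSC2 came to 3.81 ± 0.631 in sh-KRT15, between PKP4 and PKP2, and to 10.7 ± 1.24 in sh-NC, above PKP4 and PKP3. On that scale DSG2 and JUP overlapped in both groups. In sh-NC PKP4 (8.26) then stood above PKP3 (7.92), with overlap, so the order of those genes in sh-NC depends on the length used. The same holds for DSC2 and PKP2 in sh-KRT15. Per kilobase of coding length DSC2 (3.08 to 4.20) lay above PKP2 (2.07 to 2.59) there, with no overlap.

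Of 10 other desmosome and cornified envelope genes listed, 3 were tested, too few to set against the 45.0% called over all genes. KAZN, a desmosome-associated periplakin partner, rose (0.41 ± 0.10, adjusted p = 0.00206), and 2 were not called. PERP, a membrane protein of desmosomes and a p53 target, stood at 171 ± 10.3 CPM in sh-KRT15 and 157 ± 5.03 CPM in sh-NC (adjusted p = 0.184). TMEM43 stood at 119 ± 2.34 CPM in sh-KRT15 and 130.5 ± 8.39 CPM in sh-NC (adjusted p = 0.148). It is linked to arrhythmogenic cardiomyopathy but does not carry the term desmosome in the deposited table. PERP was called higher with total-count scaling (adjusted p = 0.0498) and TMEM43 lower without sh-NC replicate 3 (0.0321), and with the trend of GC content and length removed both were called (0.00148 and 0.00899), as was KAZN (0.00714), so that all 3 were then called. With that trend removed, 3645 of all 13656 tested genes were called higher and 3288 lower. The deposited table attached the term desmosome to 25 genes, a list that holds all 10 members. Of its 14 tested genes 6 rose, 4 fell and 4 were not called. The 6 tested members make up 3 of these rises, 2 of the falls and 1 of the genes not called, so the count repeats them. Over all tested genes 22.1% were called higher and 23.0% lower.

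Among armadillo relatives and adherens junction genes, 4 of 13 tested rose, 2 fell and 7 were not called, with a median log2 fold change of 0.01. Over all tested genes 45.0% were called, 22.1% higher and 23.0% lower. CDH2, N-cadherin, fell with the smallest p, with 653, 735 and 661 reads in sh-KRT15 and 1127, 1035 and 932 in sh-NC. NECTIN3 fell as well (−0.43 ± 0.10, adjusted p = 0.00178). CTNNA1, the alpha-catenin that links cadherins to actin (0.37 ± 0.07, adjusted p = 0.000290), NECTIN1 (0.54 ± 0.11, adjusted p = 0.000435), VCL (0.27 ± 0.08, adjusted p = 0.00919) and CTNND1, p120-catenin (0.69 ± 0.20, adjusted p = 0.00982) rose. CTNNB1, beta-catenin and the closest relative of JUP, was at a mean of 328 CPM in sh-KRT15 and 303 CPM in sh-NC (adjusted p = 0.170), but was called higher with total-count scaling (0.0365) and with the trend of GC content and length removed (0.00743).

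Hemidesmosome genes, which fix cells to the basement membrane, moved in both directions: of 8 tested and reported, 3 rose, 2 fell and 3 were not called, with a median log2 fold change of 0.19. Across all tested genes 22.1% were called higher and 23.0% lower. LAMB3, a laminin chain of the basement membrane, fell (917 ± 69.0 CPM in sh-KRT15 and 1492 ± 5.56 CPM in sh-NC, adjusted p = 4.71e-07), as did the plakin DST (−0.59 ± 0.13, adjusted p = 0.00250). COL17A1, the transmembrane collagen of hemidesmosomes, rose to 24.3 ± 2.84 CPM in sh-KRT15, against 14.1 ± 1.00 CPM in sh-NC (adjusted p = 2.32e-05), and PLEC (0.55 ± 0.11, adjusted p = 0.00101) and ITGA6 (0.28 ± 0.10, adjusted p = 0.0250) rose too. ITGA6 lost its call without sh-KRT15 replicate 1 (adjusted p = 0.0668) or 2 (0.0912) or sh-NC replicate 3 (0.0790).

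**Figure D5:**
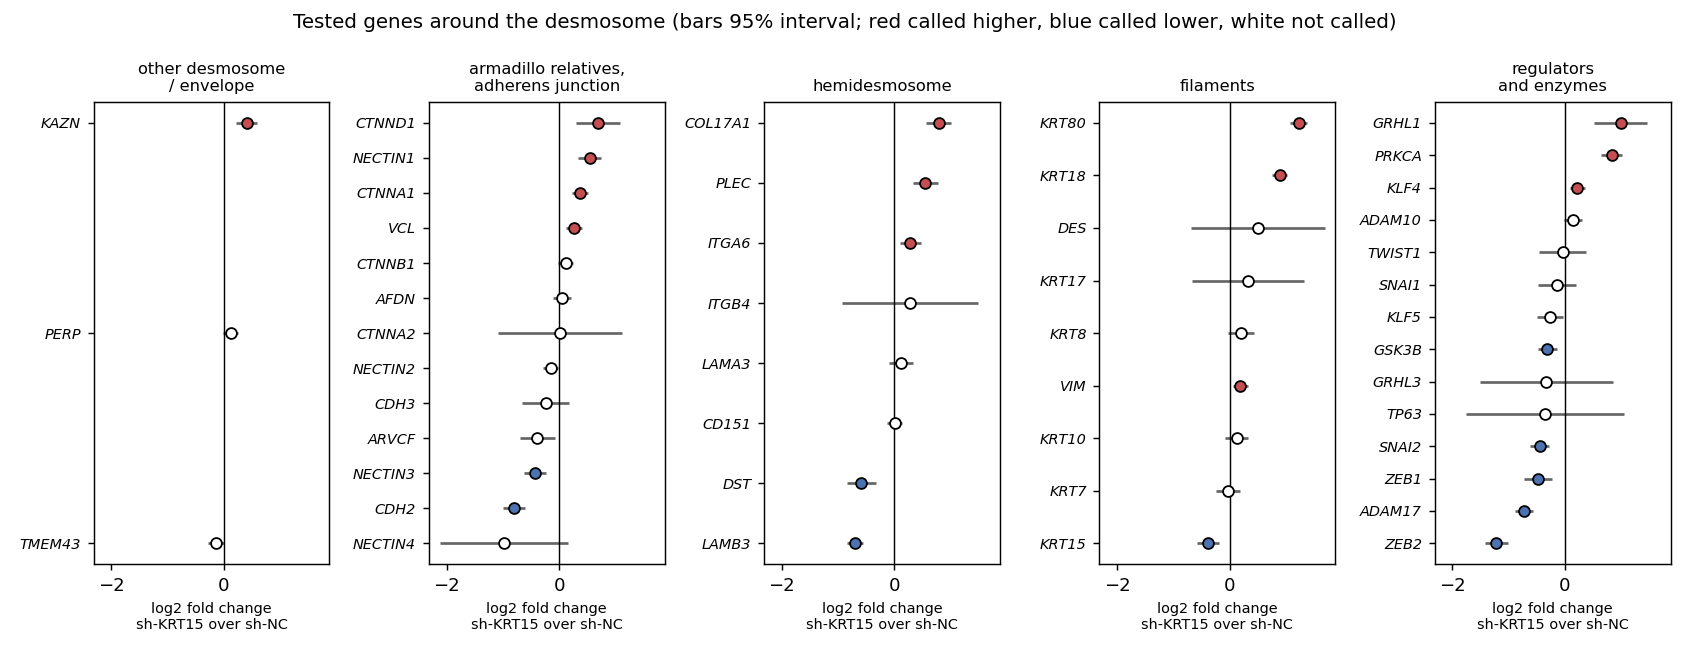
Log2 fold change of sh-KRT15 over sh-NC with its 95% interval for the tested genes of 5 lists around the desmosome; red genes were called higher, blue genes lower and white genes were not called. Each list but the first holds calls in both directions, and ZEB2 is the lowest called value.

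Of the filament genes that desmosomes can anchor, 3 of 9 tested rose, 1 fell and 5 were not called, with a median of 0.20. Across all tested genes 22.1% were called higher and 23.0% lower. KRT80 rose to 116 ± 6.45 CPM in sh-KRT15, against 49.6 ± 1.49 CPM in sh-NC (adjusted p = 1.14e-09), and KRT18, a keratin of simple epithelia, to 215 ± 5.96 CPM in sh-KRT15, against 116 ± 4.01 CPM in sh-NC (adjusted p = 1.37e-08). KRT18 overlaps KRT8 on chromosome 12, and without a strand setting reads of the overlap cannot be told apart. VIM, vimentin, also rose (0.19 ± 0.07, adjusted p = 0.0343), with adjusted p-values of 0.0595 to 0.132 without sh-KRT15 replicate 1 or 3 or sh-NC replicate 1 or 2. KRT15 was the gene that fell.

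Of transcription factors and enzymes known to act on desmosomal genes or proteins, 3 of 14 tested rose, 5 fell and 6 were not called, with a median of −0.29. Over all tested genes 45.0% were called, 22.1% higher and 23.0% lower. ZEB2, a repressor of epithelial genes, fell to 31.7 ± 3.27 CPM in sh-KRT15, against 73.6 ± 9.01 CPM in sh-NC (adjusted p = 4.97e-08), and the repressors ZEB1 (−0.47 ± 0.13, adjusted p = 0.00610) and SNAI2 (−0.45 ± 0.09, adjusted p = 0.000516) fell as well. SNAI1 (−0.14 ± 0.17, adjusted p = 0.554) and TWIST1 (−0.04 ± 0.21, adjusted p = 0.899) of the same list were not called. ADAM17, a protease that can shed DSG2, fell by 0.73 ± 0.08 on the log2 scale (adjusted p = 1.11e-06) and GSK3B by 0.31 ± 0.09 (adjusted p = 0.00689, but 0.0627 without sh-NC replicate 2). PRKCA, the kinase that makes desmosomes calcium-dependent, rose by 0.83 ± 0.10 (adjusted p = 2.12e-06), and so did GRHL1, a grainyhead factor that activates DSG1 in epidermis (0.99 ± 0.24, adjusted p = 0.00254), and KLF4 (0.22 ± 0.07, adjusted p = 0.0151). KLF4 lost its call without sh-NC replicate 2 (adjusted p = 0.0533) and with the trend of GC content and length removed (0.0654). Genes of these paragraphs other than the 3 with the smallest p-values of each list were picked for mention after their values were seen.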

How the data were processed

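Values were raw read counts per gene, deposited by the authors as 1 whole number per gene and library, with no normalization. Per the submitters' processing notes the build was GRCh38. For the aligner, counter, annotation and strand: not given in the sources used here. TRIzol extraction and mRNA libraries for Illumina sequencing are named, per the labels' protocols.

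Libraries were grouped by their titles. No pair of libraries agreed within sampling noise (chi-square per degree of freedom 5.13 to 23.6 within groups and 132 to 151 between them). The quasi-likelihood test was that of edgeR 4.0.16 (R 4.3.3, robust dispersions, TMM scaling, group as the only term) across the 14356 genes that passed filterByExpr (minimum count 10, total 15). Benjamini-Hochberg adjustment ran over those genes, with calls under 0.05. Log2 fold changes are sh-KRT15 over sh-NC, with standard errors from the test statistic. CPM are counts scaled with TMM library sizes. Shares and ratios were tested by exact permutation. The fit was also run on simulated counts. Far fewer genes were changed there than were called here, so that run does not test the scaling under so broad a difference. DESeq2 1.42.0 and limma-voom 3.58.1 were among the alternatives. Lengths came from GENCODE release 29, positions from RefSeq by Entrez identifier (21976 of 22681 rows), promoters from RefSeq (GRCh38.p14). The members, gene lists and tests were chosen with earlier results of these data known. All members were named, and of each other list the 3 tested genes with the smallest p-values. Intervals on reads cover counting error only. One gene of the hemidesmosome list is not reported here and was left out of that list's counts.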

Additional observations from a re-analysis of the deposited data

How the results depend on the processing

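The 15 other settings were size factors of DESeq2, upper-quartile and total-count scaling, DESeq2, limma-voom, dropping the filter, a stricter filter (1 CPM in 3 libraries), the replicate block, removal of the trend of GC content and length, and leaving out each of the 6 libraries. DSC2 (−1.57 to −1.28), PKP3 (0.85 to 1.02) and PKP4 (0.36 to 0.48) kept their direction and their call in all 15, and KRT15 did so too (−0.52 to −0.30). The count of members called lower was 2, and 1 with total-count scaling and with limma-voom. It was 1 to 2 when 1 library was left out, and the count called higher was 2 to 3. The loss was in each case the call of DSG2 or PKP2, and without sh-KRT15 replicate 2 JUP was called in place of PKP2. B4GALT6 turned to 0.035 with the trend of GC content and length removed. The cause was not tested.

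Over all genes, 3169 were called higher and 3295 lower, against 3305 and 3428 with the replicate block. Same-numbered libraries did not deviate together (correlations of 0.0188, −0.00742 and 0.0462), so the numbers were not taken as pairs. With the block 3 members were called higher and 2 lower. Neither DSP, PKP1, DSC3 nor DSG3 could be tested at this depth under the filter.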
